A study of Mus musculus with 24 samples.

Results

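Bone marrow-derived macrophages exposed to 100 ng LPS for 4 h were compared with untreated macrophages of the same time point, across all genes. The comparison uses 6 of the 24 libraries of the series, 3 with LPS and 3 untreated, chosen by their labels. Both groups are wild-type C57BL/6J cells, grown from femur and tibia marrow of 8- to 12-week-old mice in medium with L929 supernatant as the source of M-CSF. Neither group received dexamethasone, the glucocorticoid used elsewhere in the series, and the volume for the LPS amount is not stated. Whether replicates came from separate mice or cultures is not stated in the labels. The p-values therefore refer to the spread among libraries within the 8 groups of the series, which were fitted together, and this spread may be technical.

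LPS, a glycolipid of the outer membrane of Gram-negative bacteria, is bound by CD14 and by the complex of Toll-like receptor 4 and MD-2. Adaptors of the MyD88 and TRIF branches then activate NF-kB, AP-1 and interferon regulatory factors, which switch on genes of inflammation together with their own inhibitors. M-CSF keeps macrophages alive and, in culture, lets a part of them divide, and LPS is known to stop that division. The results are given for the sensors, transcription factors, feedback inhibitors and receptors first, and then for programmes that were lower with LPS and for other lists.

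Library totals were 22694740 to 27908164 counts with LPS and 18326206 to 27498535 counts in untreated cells. The genes that were at least 2-fold higher with LPS held 50.2 to 50.9% of all counts in the LPS libraries, against 14.2 to 14.4% in the untreated ones. Levels are therefore given as CPM, the counts of a gene scaled to a fixed total, with library sizes corrected by TMM factors, and the mean of 3 libraries carries its SD. Log2 fold changes are LPS over untreated with an approximate standard error, and p-values of edgeR's quasi-likelihood test were adjusted by the Benjamini-Hochberg method over the 14985 genes that passed a filter on low counts. Scaling by library size alone (library-size scaling) would lower every log2 fold change by about 0.77, and directions that then flip are named where they occur, with the counts of a list wherever its balance moves by over 10 percentage points. Where leaving out 1 library moves a called fold change by more than 1.5 times, which happened for genes with few counts in 1 group, its value without that library follows. Macrophage markers were abundant in both groups, and of 12 listed 7 were higher and 4 lower with LPS (3 and 9 under library-size scaling). Their sums were 24105 to 26222 CPM with LPS and 18170 to 20166 CPM in untreated libraries. TMM factors were 0.68 to 0.71 with LPS and 1.17 to 1.18 in untreated libraries. Under library-size scaling these sums are therefore lower with LPS. Csf1r, the M-CSF receptor, had 2325 ± 96.1 CPM with LPS and 2703 ± 56.7 CPM in untreated cells. Cd68, a lysosomal membrane glycoprotein, had 821 ± 44.3 CPM with LPS and 919.7 ± 42.8 CPM in untreated cells. Adgre1, which codes for the F4/80 antigen, had 2127 ± 43.2 CPM with LPS and 1482 ± 75.0 CPM in untreated cells, a difference (log2 fold change 0.52 ± 0.06, adjusted p = 1.5e-09) that turns to -0.25 under library-size scaling.

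At 4 h, 5118 genes were higher with LPS, or 34.2% of those tested, and 5812 were lower, or 38.8%, so that 72.9% were called in either direction. Of these, 2630 (17.6%) were at least 2-fold higher and 3249 (21.7%) at least 2-fold lower. Under library-size scaling the split was 2434 higher and 9778 lower, of which 1622 and 6345 changed at least 2-fold. With TMM factors, for which alone the next counts were made, the rises were the steeper side. At least 16-fold differences were found for 630 genes upward and 336 downward, at least 64-fold for 295 and 70, and at least 256-fold for 127 and 5. These counts include genes with 0 or few counts in 1 group, whose fitted values are no measured fold. Further, 147 genes had at least 5 CPM with LPS and under 0.5 CPM in untreated cells, whereas 44 genes showed the reverse. The LPS and untreated libraries did not overlap for 72.3% of all genes tested. This share, and those of 34.2% higher and 38.8% lower, are the background for the genes and lists below. In bulk RNA, fewer cells of a type and less RNA per cell cannot be told apart, and this holds for every fall described here.

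**Figure D1:**
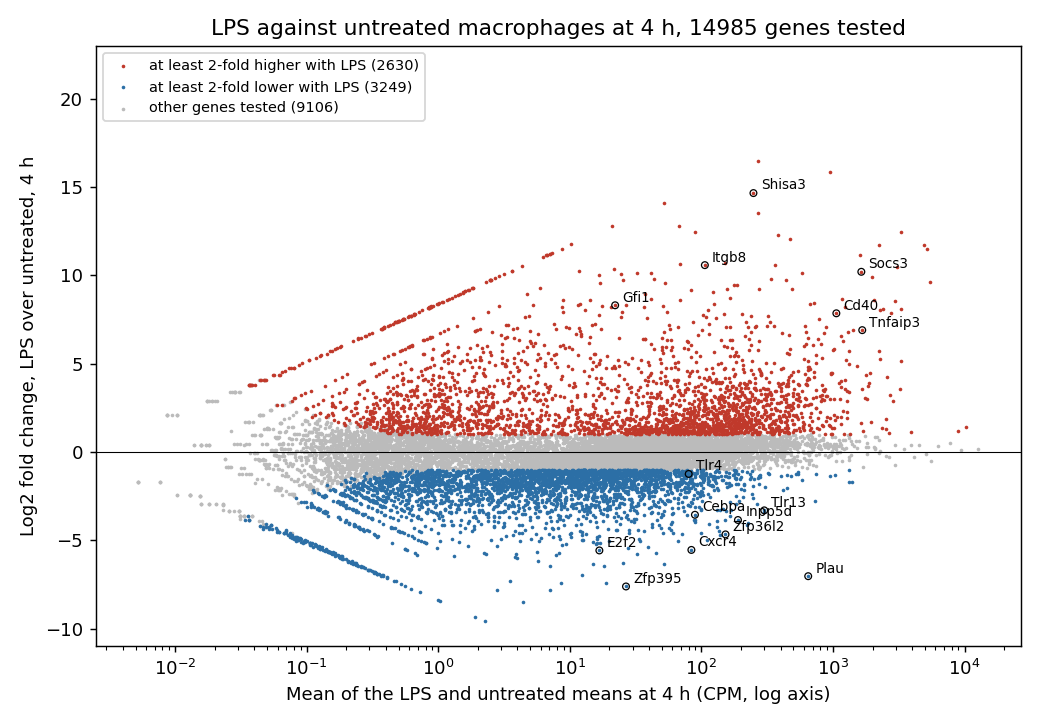
Log2 fold change of LPS over untreated cells at 4 h (vertical axis) against the mean of both group means in CPM (horizontal log axis), 1 point per gene. The 2630 genes at least 2-fold higher reach further from 0 than the 3249 genes at least 2-fold lower, and the straight rows of points at low CPM are genes with 0 or few counts in 1 group, whose fitted values are no measured fold.

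Genes other than the well-known inflammatory cytokines were among the 15 largest rises. Lipg, which codes for endothelial lipase, had 868, 998 and 968 CPM with LPS, against 0.218, 0.230 and 0.184 CPM in untreated cells. Shisa3 had 26300 counts over the LPS libraries and 1 count over the untreated ones, a ratio of 37690 after scaling, with a 95% interval of 6765 to 1489000 that covers counting error only. Il19, a cytokine of the IL-10 family, had 2196 counts with LPS and none in untreated cells, so it was at least 1049-fold higher against a floor of 3 counts over the group. Has1, a hyaluronan synthase, had 1086 counts with LPS and none in untreated cells, at least 519-fold higher. Groups without overlap were a condition for these 15 rises, so the separation of their libraries adds no support.

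The largest falls joined genes of signalling, lipid metabolism and transcription. Plau, which codes for the urokinase-type plasminogen activator, had 13.4, 8.16 and 7.56 CPM with LPS, against 1358, 1302 and 1202 CPM in untreated cells (log2 fold change -7.03 ± 0.30, adjusted p = 2.8e-13). Groups without overlap were a condition for the 15 largest falls as well. Zfp395, a zinc finger protein gene, had 0.261, 0.399 and 0.125 CPM with LPS, against 53.2, 55.8 and 50.6 CPM in untreated cells (log2 fold change -7.61 ± 0.20, adjusted p = 9.9e-29). Cnr2, the cannabinoid receptor of immune cells, had 0.209, 0.285 and 0.125 CPM with LPS, against 36.3, 40.0 and 35.7 CPM in untreated cells (log2 fold change -7.44 ± 0.17, adjusted p = 1.4e-30). Lpin1, a phosphatidate phosphatase of triglyceride synthesis that also acts as a transcriptional coactivator, had 3 counts with LPS and 1057 in untreated cells, 246-fold lower with a 95% interval of 83.9 to 1194. The transcription factor genes Sox4 (-6.97 ± 0.40, -8.67 without LPS library 3) and Tfap4 (-6.47 ± 0.28, -7.74 without LPS library 1) and the Myc target gene Cdca7 (-6.48 ± 0.36, -9.10 without LPS library 1) belonged to the same 15.

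The receptors that sense microbes moved in both directions. Of 14 Toll-like receptors and LPS binding proteins tested, 9 were higher and 4 lower, with a median log2 fold change of 1.32 against -0.07 over all genes tested. Tlr4, the LPS receptor itself, had 44.4, 50.2 and 48.4 CPM with LPS, against 116, 112 and 109.5 CPM in untreated cells. Every LPS library was below every untreated one, with a log2 fold change of -1.24 ± 0.07 (adjusted p = 2.9e-18). Its co-receptors rose. Cd14, which hands LPS to the receptor, had 3349, 3352 and 2964 CPM with LPS, against 399.7, 434 and 388 CPM in untreated cells (log2 fold change 2.98 ± 0.06, adjusted p = 6.9e-32). Ly96, which codes for MD-2, had 23.4 ± 0.722 CPM with LPS and 7.69 ± 0.201 CPM in untreated cells (log2 fold change 1.61 ± 0.10, adjusted p = 4.7e-17).

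The receptors of other ligands split likewise. Tlr2, the receptor of bacterial lipoproteins, had 1193, 1259 and 1034 CPM with LPS, against 82.4, 75.4 and 86.6 CPM in untreated cells (log2 fold change 3.83 ± 0.08, adjusted p = 2e-28). Its partners Tlr1 (2.68 ± 0.11) and Tlr6 (2.62 ± 0.06) rose too. Tlr3, the endosomal sensor of double-stranded RNA, had 192, 202 and 203 CPM with LPS, against 10.7, 11.7 and 10.1 CPM in untreated cells (log2 fold change 4.20 ± 0.10, adjusted p = 1.5e-28), and the RNA sensors Tlr7 (1.79 ± 0.07) and Tlr8 (1.03 ± 0.09) were also higher. In contrast Tlr13, which recognises bacterial ribosomal RNA in mice, had 49.1, 54.2 and 62.8 CPM with LPS, against 587, 508 and 541 CPM in untreated cells. Per kilobase of exon it held 127 CPM in untreated cells, above the 29.96 of Tlr7 and the 27.04 of Tlr2, and it fell by 3.30 on the log2 scale (adjusted p = 1.7e-31). Tlr5, the flagellin receptor, was low throughout, with 0.256 ± 0.233 CPM with LPS and 2.18 ± 1.08 CPM in untreated cells (log2 fold change -3.09 ± 0.44, adjusted p = 2.1e-07, -2.46 without LPS library 1 and -3.86 without LPS library 2). Tlr9, the sensor of unmethylated DNA, did not pass the test, with 33.5 ± 0.971 CPM with LPS and 31.4 ± 0.760 CPM in untreated cells (adjusted p = 0.55), and is at -0.68 under library-size scaling. Of the remaining members, Cd180 had 291 ± 8.55 CPM with LPS and 352 ± 10.6 CPM in untreated cells (log2 fold change -0.27 ± 0.06, adjusted p = 0.00011) and its partner Ly86 had 171 ± 6.02 CPM with LPS and 85.7 ± 2.79 CPM in untreated cells (log2 fold change 1.00 ± 0.08, adjusted p = 2.7e-12). Lbp, the LPS binding protein gene, stayed under 1.5 CPM in every library, and its call (log2 fold change 2.24 ± 0.68, adjusted p = 0.0037) is lost without LPS library 1 (adjusted p = 0.064). Tlr11 and Tlr12 were below the filter on low counts.

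Downstream of the receptors, 21 of 29 genes tested were higher and 6 lower, with a median log2 fold change of 1.27. The counts were 15 and 12 under library-size scaling. Peli1, an E3 ubiquitin ligase of this pathway, had 942, 1015 and 884 CPM with LPS, against 42.0, 38.8 and 42.0 CPM in untreated cells (log2 fold change 4.53 ± 0.07, adjusted p = 1.6e-35). Map3k8, the kinase that links the receptors to ERK, had 236, 242 and 222 CPM with LPS, against 12.5, 9.77 and 8.79 CPM in untreated cells (log2 fold change 4.47 ± 0.11, adjusted p = 5.8e-22). Myd88, the shared adaptor, had 605 ± 32.2 CPM with LPS and 65.6 ± 1.14 CPM in untreated cells (log2 fold change 3.21 ± 0.05, adjusted p = 2.1e-34). Irak4 and Irak1, kinases that act on that adaptor, were lower. Irak4 had 29.2, 25.7 and 23.9 CPM with LPS, against 43.8, 49.9 and 43.7 CPM in untreated cells (log2 fold change -0.80 ± 0.07, adjusted p = 4.7e-12). Irak1 had 105, 104 and 94.1 CPM with LPS, against 158, 159 and 161 CPM in untreated cells (log2 fold change -0.66 ± 0.05, adjusted p = 5.5e-15). Tab1, a regulatory partner of the kinase TAK1, had 10.2 ± 1.08 CPM with LPS and 28.2 ± 2.19 CPM in untreated cells (log2 fold change -1.48 ± 0.10, adjusted p = 3.4e-16). For each of these 3 genes the groups did not overlap, as was the case for 72.3% of all genes tested.

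The NF-kB system rose almost as a whole. Of 19 subunits and inhibitors tested, 17 were higher and 1 was lower (16 and 3 under library-size scaling), with a median log2 fold change of 3.22. All 5 subunits were among them. Nfkb2 had 1334, 1447 and 1284 CPM with LPS, against 71.0, 75.7 and 68.6 CPM in untreated cells (log2 fold change 4.24 ± 0.06, adjusted p = 1.4e-36), Nfkb1 changed by 3.22 ± 0.06, Relb by 3.20 ± 0.07 and Rel by 3.09 ± 0.06. Rela, which codes for the p65 subunit, moved least of the 5, with 313, 340.4 and 299.5 CPM with LPS, against 89.3, 91.3 and 91.4 CPM in untreated cells (log2 fold change 1.81 ± 0.05, adjusted p = 2e-27). Several inhibitors rose together with them. Tnfaip3, the gene of the deubiquitinase A20, had 3410.2, 3409 and 3117 CPM with LPS, against 30.8, 26.6 and 25.2 CPM in untreated cells (log2 fold change 6.90 ± 0.11, adjusted p = 5.3e-25). Nfkbia, which codes for IκBα, had 2570.5, 2688 and 2392 CPM with LPS, against 84.2, 77.3 and 78.1 CPM in untreated cells (log2 fold change 5.00 ± 0.06, adjusted p = 8.7e-38). Its relative Nfkbiz, a nuclear coactivator of secondary response genes, had 1172 ± 36.9 CPM with LPS and 30.5 ± 0.801 CPM in untreated cells (log2 fold change 5.27 ± 0.11, adjusted p = 1.3e-21). Bcl3, a nuclear partner of p50 and p52, had 291 ± 10.9 CPM with LPS and 10.7 ± 1.85 CPM in untreated cells (log2 fold change 4.75 ± 0.09, adjusted p = 5e-30). Tnip1, an A20-binding inhibitor, changed by 4.72 ± 0.06. The 1 member that fell was Nkiras1, with 1.53 ± 0.544 CPM with LPS and 4.70 ± 0.808 CPM in untreated cells (log2 fold change -1.62 ± 0.23, adjusted p = 6.9e-08), and the deubiquitinase gene Otulin did not pass the test.

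RefSeq promoters of GRCm38.p6, from 250 bases before to 50 bases after the start of each gene, were available for 14 of the 17 NF-kB members that rose. The κB consensus of NF-kB, searched on both strands, was present in 10 of these 14 promoters (71.4%), against 5.14% of the 27025 genes with a promoter in the same table and 5.62% of the 6175 tested genes there that did not change at least 2-fold. For the 48 replication genes that were lower with LPS, described further on, promoters of 39 were available and 1 held the κB consensus (2.56%). A match of letters is a description and not a shown binding site. The 3 stretches shown are those of the members with the largest rises that had a match before the start, each 100 bases long, 5′ to 3′ on the minus strand, with the matched letters in capitals. In Tnip1 the capitals cover 3 overlapping matches.
Tnfaip3 (chr10:19015411-19015510): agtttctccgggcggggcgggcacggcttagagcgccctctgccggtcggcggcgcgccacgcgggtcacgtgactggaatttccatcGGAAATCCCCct
Nfkbia (chr12:55492648-55492747): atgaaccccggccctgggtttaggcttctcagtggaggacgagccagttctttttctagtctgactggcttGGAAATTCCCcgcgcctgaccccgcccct
Tnip1 (chr11:54962947-54963046): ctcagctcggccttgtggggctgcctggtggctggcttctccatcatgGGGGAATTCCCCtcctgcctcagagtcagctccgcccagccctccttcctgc

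AP-1, the dimer of Fos, Jun, ATF and BATF proteins, had members that moved in both directions. Of 26 AP-1, ATF and CREB factors tested, 17 were higher and 7 lower, and the median of 0.68 turns to -0.09, with 12 higher and 12 lower, under library-size scaling. Batf2 and Batf had the largest rises of the list. Batf2 had 145, 171 and 155 CPM with LPS, against 1.62, 2.26 and 2.53 CPM in untreated cells (log2 fold change 6.24 ± 0.14, adjusted p = 9.4e-27). Batf had 126, 113 and 116 CPM with LPS, against 1.37, 1.57 and 3.08 CPM in untreated cells (log2 fold change 5.93 ± 0.14, adjusted p = 7.7e-27). Junb had 1593 ± 111 CPM with LPS and 176 ± 7.27 CPM in untreated cells (log2 fold change 3.18 ± 0.09, adjusted p = 1.4e-19). Jdp2, which codes for a Jun-binding repressor, had 159.9 ± 10.6 CPM with LPS and 14.8 ± 1.83 CPM in untreated cells (log2 fold change 3.44 ± 0.07, adjusted p = 8.4e-32). Atf3, a repressor induced by stress, had 671 ± 56.9 CPM with LPS and 205 ± 14.3 CPM in untreated cells (log2 fold change 1.71 ± 0.07, adjusted p = 1.1e-20). Fos, the founding member of its family, had 49.6, 44.5 and 44.0 CPM with LPS, against 211, 196 and 202 CPM in untreated cells (log2 fold change -2.14 ± 0.11, adjusted p = 2.3e-14). Fosb had 0.133 ± 0.132 CPM with LPS and 5.46 ± 1.18 CPM in untreated cells (log2 fold change -5.30 ± 0.52, adjusted p = 1.9e-11, -6.45 without LPS library 2). Jun had 86.2 ± 11.5 CPM with LPS and 137 ± 8.73 CPM in untreated cells (log2 fold change -0.66 ± 0.08, adjusted p = 4.2e-09). For Fos, Fosb and Jun all LPS libraries lay below all untreated libraries, and 72.3% of all genes tested had groups without overlap.

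Interferon regulatory factors and STAT proteins were mostly higher, with 12 of 15 higher, 2 lower (9 and 4 under library-size scaling) and a median of 1.61. Irf7, the factor that amplifies type I interferon production, had 1396, 1485 and 1444 CPM with LPS, against 47.4, 40.4 and 41.4 CPM in untreated cells (log2 fold change 5.06 ± 0.13, adjusted p = 2.4e-18). Irf1 had 435 ± 38.97 CPM with LPS and 26.98 ± 1.39 CPM in untreated cells (log2 fold change 4.01 ± 0.07, adjusted p = 5.6e-33). Stat2, part of the factor that binds interferon-stimulated response elements, had 1029 ± 13.3 CPM with LPS and 74.2 ± 5.81 CPM in untreated cells (log2 fold change 3.79 ± 0.08, adjusted p = 2.2e-28). Stat5a, which acts below receptors for GM-CSF and related cytokines, had 404 ± 38.7 CPM with LPS and 29.6 ± 0.514 CPM in untreated cells (log2 fold change 3.77 ± 0.07, adjusted p = 1.6e-33). Stat6, the factor of IL-4 signalling, went the other way, with 114, 106 and 107 CPM with LPS, against 298, 289 and 291 CPM in untreated cells (log2 fold change -1.43 ± 0.05, adjusted p = 2e-25). Its groups did not overlap, as for 72.3% of all genes tested.

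Factors of myeloid identity moved in both directions. Of 49 C/EBP, ETS and lineage factors tested, 24 were higher and 22 lower (17 and 30 under library-size scaling), with a median of -0.05 that is 0.02 with DESeq2. Within the C/EBP family the members went in opposite directions. Cebpa, the factor of early myeloid commitment, had 11.9, 16.3 and 13.9 CPM with LPS, against 167, 166 and 161 CPM in untreated cells (log2 fold change -3.55 ± 0.13, adjusted p = 1.6e-16). Cebpb, a factor of inflammatory gene expression, had 854, 915 and 818 CPM with LPS, against 49.2, 53.8 and 49.8 CPM in untreated cells (log2 fold change 4.08 ± 0.09, adjusted p = 8e-26). Cebpd had 693, 777 and 622 CPM with LPS, against 21.5, 16.3 and 25.8 CPM in untreated cells (log2 fold change 5.04 ± 0.14, adjusted p = 1.3e-17). Per kilobase of exon, with LPS Cebpa held 5.33 CPM, Cebpb 573 and Cebpd 186, and in untreated cells Cebpa held 62.4, Cebpb 33.9 and Cebpd 5.65, so the highest member with LPS was not the highest in untreated cells. Gfi1, a transcriptional repressor of blood cell development, had 42.1, 43.2 and 46.9 CPM with LPS, against 0.0624, 0.369 and 0 CPM in untreated cells (log2 fold change 8.31 ± 0.27, adjusted p = 3e-20, 9.99 without untreated library 2). Tfec, a macrophage relative of MITF, had 274 ± 39.6 CPM with LPS and 8.41 ± 0.470 CPM in untreated cells (log2 fold change 5.03 ± 0.16, adjusted p = 1.2e-16). Among the falls, Nfatc2, a calcium-regulated factor, had 2.15 ± 0.146 CPM with LPS and 64.5 ± 6.74 CPM in untreated cells (log2 fold change -4.90 ± 0.13, adjusted p = 7.2e-27). Lyl1, a basic helix-loop-helix factor of blood progenitors, changed by -4.61 ± 0.11 and the ETS factor Etv5 by -3.97 ± 0.13.

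Nuclear receptors and their cofactors were mainly lower. Of 28 tested, 20 were lower and 6 higher (22 and 3 under library-size scaling), with a median of -0.84. Rxra, the shared dimer partner of many of these receptors, had 5.38, 4.96 and 5.68 CPM with LPS, against 60.8, 54.1 and 62.0 CPM in untreated cells (log2 fold change -3.47 ± 0.10, adjusted p = 1.3e-27). Pparg, the lipid-sensing receptor of alternatively activated macrophages, had 7.53, 9.76 and 8.81 CPM with LPS, against 72.7, 76.1 and 72.2 CPM in untreated cells (log2 fold change -3.09 ± 0.10, adjusted p = 3.4e-25). Nr3c1, the glucocorticoid receptor, had the largest rise of the list, at 2.11 ± 0.06.

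**Figure D2:**
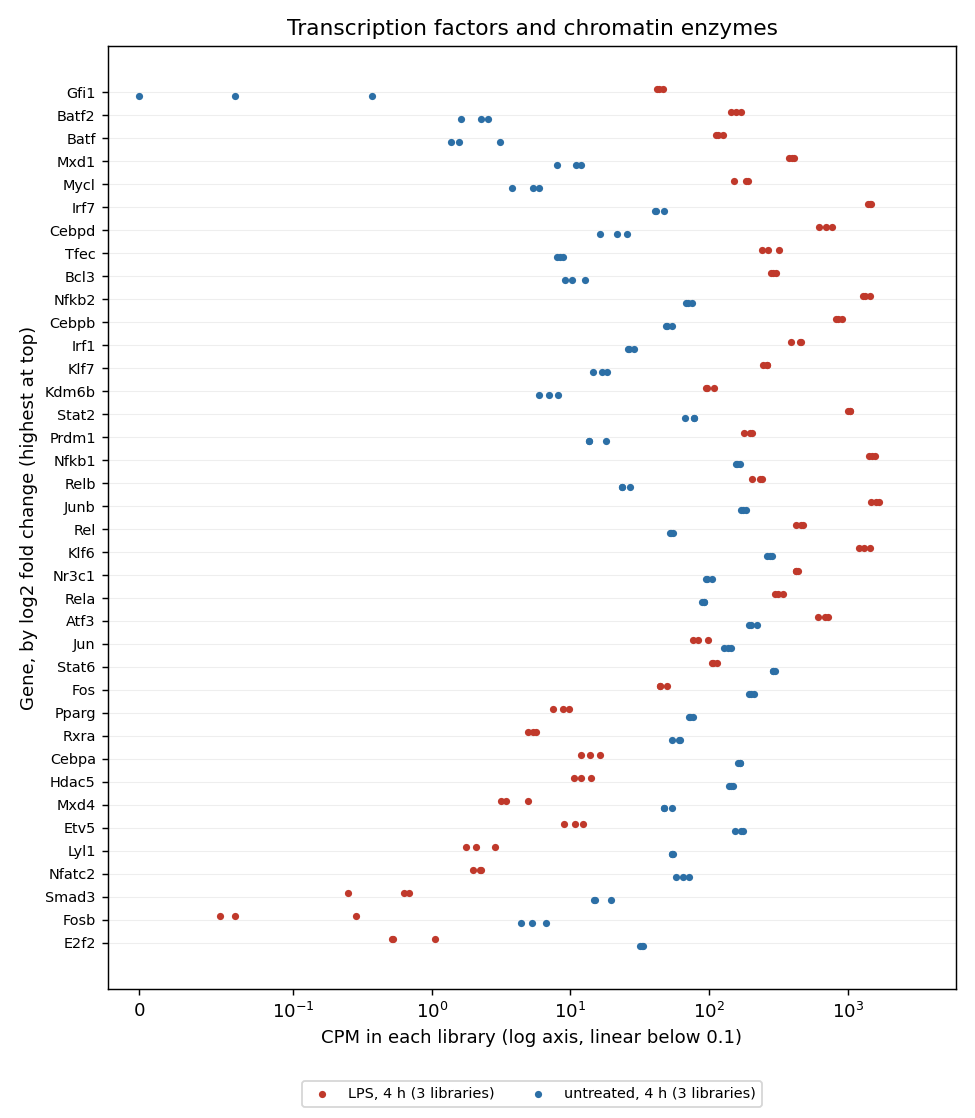
CPM of 38 transcription factor and chromatin enzyme genes (rows) in each of the 3 LPS libraries and the 3 untreated libraries at 4 h, on a log axis that is linear below 0.1. The LPS points lie to the right of the untreated points for the genes in the upper part, from Gfi1 to Atf3, and to the left for those from Jun down to E2f2. No row shows overlap, as for 72.3% of all genes tested.

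KLF and Sp factors had 6 higher and 7 lower members of 15 tested (4 and 10 under library-size scaling), with a median of -0.04 that is 0.02 with DESeq2 and also 0.02 without LPS library 2. Klf7 had 256 ± 9.49 CPM with LPS and 16.7 ± 1.94 CPM in untreated cells (log2 fold change 3.93 ± 0.07, adjusted p = 1.1e-33). Klf6 had 1329.5 ± 125 CPM with LPS and 275 ± 11.9 CPM in untreated cells (log2 fold change 2.27 ± 0.06, adjusted p = 1.6e-28). Klf3, a repressor of this family, had 213 ± 1.95 CPM with LPS and 48.7 ± 2.55 CPM in untreated cells (log2 fold change 2.13 ± 0.06, adjusted p = 3.3e-27). In the Myc, Mxd and Mlx network, 4 of 11 genes tested were higher and 6 lower, with a median log2 fold change of -0.65. Mxd1, an antagonist of Myc, had 396, 409.7 and 375 CPM with LPS, against 11.9, 7.97 and 11.04 CPM in untreated cells (log2 fold change 5.24 ± 0.09, adjusted p = 2.7e-32). Mycl, a Myc relative, had 176 ± 20.9 CPM with LPS and 5.03 ± 1.09 CPM in untreated cells (log2 fold change 5.10 ± 0.12, adjusted p = 1.6e-29). The Myc antagonists Mxd4 and Mnt were lower, with 3.83 ± 0.948 CPM with LPS and 49.8 ± 3.95 CPM in untreated cells for Mxd4 (log2 fold change -3.70 ± 0.11, adjusted p = 5.1e-27) and 7.01 ± 0.788 CPM with LPS and 56.9 ± 1.71 CPM in untreated cells for Mnt (log2 fold change -3.03 ± 0.08, adjusted p = 2.2e-28).

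Among other factors, Prdm1, the gene of the repressor BLIMP1, had 194 ± 13.5 CPM with LPS and 15.1 ± 2.53 CPM in untreated cells (log2 fold change 3.69 ± 0.10, adjusted p = 4.4e-24). Hivep2, a κB-binding zinc finger gene, had 216 ± 15.3 CPM with LPS and 11.3 ± 1.61 CPM in untreated cells (log2 fold change 4.27 ± 0.09, adjusted p = 4.2e-31). Zbtb16, which codes for the PLZF repressor, had 1 count with LPS and 658 in untreated cells, 459-fold lower with a 95% interval of 82.1 to 18160. The list of zinc finger repressors and κB-binding zinc fingers, to which these genes belong, had 10 higher and 8 lower of 19 tested. Of 33 forkhead, Smad, Notch and hypoxia factors tested, 13 were higher and 18 lower (7 and 24 under library-size scaling), with a median of -0.51. In TGF-beta signalling the effector Smad3 had 0.519 ± 0.234 CPM with LPS and 16.4 ± 2.70 CPM in untreated cells (log2 fold change -4.93 ± 0.20, adjusted p = 2.3e-22). Ski, a corepressor of Smad proteins, had 20.3 ± 1.16 CPM with LPS and 172 ± 7.55 CPM in untreated cells (log2 fold change -3.09 ± 0.08, adjusted p = 3.1e-27).

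Chromatin enzymes had 26 higher and 27 lower members of 61 tested, and their median of 0.07 is -0.70, with 10 higher and 49 lower, under library-size scaling. Kdm6b, the demethylase of histone H3 lysine 27, had 94.95, 109 and 96.0 CPM with LPS, against 6.99, 8.16 and 5.89 CPM in untreated cells (log2 fold change 3.83 ± 0.10, adjusted p = 1.6e-28). Setdb2, a histone methyltransferase gene, had 186 ± 11.7 CPM with LPS and 13.1 ± 0.191 CPM in untreated cells (log2 fold change 3.83 ± 0.07, adjusted p = 8e-33). Tet2, which oxidises methylcytosine, had 367 ± 10.6 CPM with LPS and 38.3 ± 2.29 CPM in untreated cells (log2 fold change 3.26 ± 0.09, adjusted p = 2e-22). Hdac5, a class II histone deacetylase gene, had 10.6, 14.1 and 11.9 CPM with LPS, against 144, 148 and 139 CPM in untreated cells (log2 fold change -3.56 ± 0.08, adjusted p = 7.5e-30). Dnmt1, the maintenance DNA methyltransferase, had 28.2, 28.4 and 27.1 CPM with LPS, against 259, 267 and 261 CPM in untreated cells (log2 fold change -3.23 ± 0.06, adjusted p = 1.8e-32). Neither of these 2 genes overlapped between the groups, as for 72.3% of all genes tested.

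Genes of negative feedback included some of the steepest rises together with clear falls. Of 24 SOCS proteins and other brakes of cytokine signalling, 13 were higher and 10 lower, with a median of 0.39 that is -0.37, with 9 higher and 13 lower, under library-size scaling. Socs3, the inhibitor of IL-6 family receptors, had 3296, 3442 and 3114 CPM with LPS, against 3.65, 2.30 and 2.02 CPM in untreated cells (log2 fold change 10.21 ± 0.15, adjusted p = 2.1e-25). Socs1, the inhibitor of interferon receptors, had 227, 251 and 202 CPM with LPS, against 1.62, 0.830 and 1.84 CPM in untreated cells (log2 fold change 7.28 ± 0.15, adjusted p = 1.8e-25). Cish, a relative that acts on STAT5, had 17.3 ± 1.28 CPM with LPS and 0.0614 ± 0.0703 CPM in untreated cells (log2 fold change 8.19 ± 0.45, adjusted p = 7.4e-18, 7.46 without untreated library 1 and 9.45 without untreated library 3). Inpp5d, which codes for the inositol phosphatase SHIP1, had 23.5, 24.6 and 25.8 CPM with LPS, against 364, 334 and 366 CPM in untreated cells (log2 fold change -3.85 ± 0.06, adjusted p = 1.5e-34). Spred2, an inhibitor of the Ras pathway, had 13.6 ± 1.21 CPM with LPS and 57.2 ± 5.10 CPM in untreated cells (log2 fold change -2.07 ± 0.08, adjusted p = 1.4e-22).

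Dual-specificity phosphatases, a family that includes enzymes that switch off MAP kinases, also had members in both directions. Of 19 tested, 7 were higher (36.8%) and 9 lower (47.4%), against 34.2% and 38.8% of all genes tested. Their median was -0.53, and -0.82 without LPS library 1. Dusp2 had 708, 742 and 672 CPM with LPS, against 4.65, 5.99 and 4.69 CPM in untreated cells (log2 fold change 7.12 ± 0.11, adjusted p = 6.7e-28). Dusp1, which acts on p38 and JNK, had 938 ± 29.001 CPM with LPS and 57.3 ± 3.68 CPM in untreated cells (log2 fold change 4.03 ± 0.07, adjusted p = 1.8e-31). Dusp16, which acts on JNK, had 472 ± 23.7 CPM with LPS and 13.5 ± 2.67 CPM in untreated cells (log2 fold change 5.13 ± 0.09, adjusted p = 2.1e-31). Dusp6, the phosphatase of ERK, was lower with 10.1 ± 1.05 CPM with LPS and 60.1 ± 2.32 CPM in untreated cells (log2 fold change -2.58 ± 0.11, adjusted p = 8.6e-21).

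Factors that control the life of mRNAs numbered 12 higher and 9 lower of 27 tested, with a median of 0.08 that is -0.69, with 8 higher and 16 lower, under library-size scaling. Zfp36, which codes for tristetraprolin, a protein that binds AU-rich elements, had 2254, 2262 and 1994 CPM with LPS, against 138, 138 and 120.2 CPM in untreated cells (log2 fold change 4.04 ± 0.09, adjusted p = 1e-24). Its close relatives moved in the opposite direction. Zfp36l2 had 10.6, 11.98 and 12.2 CPM with LPS, against 280.4, 300.1 and 299.7 CPM in untreated cells (log2 fold change -4.66 ± 0.07, adjusted p = 3.4e-36). Zfp36l1 had 19.7, 14.9 and 16.9 CPM with LPS, against 134, 134 and 152 CPM in untreated cells (log2 fold change -3.02 ± 0.08, adjusted p = 6.5e-29). Per kilobase of exon, with LPS Zfp36 held 625 CPM and Zfp36l2 3.28, and in untreated cells Zfp36 held 37.96 and Zfp36l2 83.1. Zc3h12a, the gene of the endonuclease Regnase-1, had 488 ± 21.8 CPM with LPS and 26.99 ± 3.91 CPM in untreated cells (log2 fold change 4.19 ± 0.08, adjusted p = 2.9e-32). Arid5a, an RNA-binding protein that protects Il6 mRNA, had 129 ± 18.8 CPM with LPS and 3.71 ± 0.221 CPM in untreated cells (log2 fold change 5.12 ± 0.12, adjusted p = 1.5e-26).

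Regulators of G protein and cyclic AMP signalling were lower in 15 and higher in 9 of 28 cases, with a median of -0.37. Pde4b, a phosphodiesterase that degrades cyclic AMP, had 475, 469.6 and 469 CPM with LPS, against 3.37, 4.10 and 5.75 CPM in untreated cells (log2 fold change 6.77 ± 0.10, adjusted p = 1.7e-32). Rgs16 had 31.9 ± 3.40 CPM with LPS and 2.01 ± 0.356 CPM in untreated cells (log2 fold change 3.95 ± 0.18, adjusted p = 1.8e-18). Rgs2, an inhibitor of Gq signalling, had 21.5, 20.9 and 15.4 CPM with LPS, against 306, 280.3 and 267 CPM in untreated cells (log2 fold change -3.88 ± 0.09, adjusted p = 1.6e-25).

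Every receptor family examined had members in both directions, in a comparison where 72.9% of all genes tested were called. Of 38 cytokine receptor genes tested, 24 were higher and 9 lower (16 and 13 under library-size scaling), with a median of 0.87. Il15ra, the chain that presents IL-15, had 142, 153 and 141 CPM with LPS, against 2.53, 1.94 and 2.90 CPM in untreated cells (log2 fold change 5.88 ± 0.10, adjusted p = 1.1e-33). Il2ra, the high-affinity chain of the IL-2 receptor, had 35.2, 32.6 and 37.5 CPM with LPS, against 0.0624, 0.0922 and 0.184 CPM in untreated cells (log2 fold change 8.29 ± 0.34, adjusted p = 2.2e-22). Osmr, the oncostatin M receptor, had 266 counts with LPS and none in untreated cells, at least 127-fold higher. Il6st, which codes for gp130, the shared chain of the IL-6 family to which that receptor belongs, had 51.5, 48.7 and 51.0 CPM with LPS, against 152, 153 and 157 CPM in untreated cells (log2 fold change -1.61 ± 0.05, adjusted p = 5e-25). Il7r had 26.5 ± 1.64 CPM with LPS and 159 ± 5.42 CPM in untreated cells (log2 fold change -2.58 ± 0.12, adjusted p = 7.7e-15). Among 19 TNF receptor superfamily genes, 9 were higher and 7 lower, and their median of 0.45 is -0.30, with 7 higher and 9 lower, under library-size scaling, 0.19 without LPS library 2 and also 0.19 without untreated library 3. Cd40, the receptor through which T cells activate macrophages, had 2156, 2217 and 1968 CPM with LPS, against 9.42, 8.11 and 9.71 CPM in untreated cells (log2 fold change 7.86 ± 0.10, adjusted p = 6.1e-34). Tnfrsf9, which codes for 4-1BB, had 52.8 ± 1.45 CPM with LPS and 0.169 ± 0.174 CPM in untreated cells (log2 fold change 8.32 ± 0.28, adjusted p = 3.3e-24, 9.36 without untreated library 3), and the death receptor gene Fas had 106 ± 3.94 CPM with LPS and 1.70 ± 0.316 CPM in untreated cells (log2 fold change 5.94 ± 0.10, adjusted p = 4.3e-34).

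Chemoattractant receptors moved in both directions. Of 19 tested, 10 were higher and 6 lower, with a median of 0.54 that is -0.23, with 8 higher and 8 lower, under library-size scaling and 0.26 without LPS library 1. Fpr2 and Fpr1, receptors of formyl peptides, rose. Fpr2 had 237, 267 and 267 CPM with LPS, against 1.75, 1.24 and 0.736 CPM in untreated cells (log2 fold change 7.61 ± 0.17, adjusted p = 5.8e-20). Fpr1 had 104, 124 and 119 CPM with LPS, against 1.93, 0.599 and 1.56 CPM in untreated cells (log2 fold change 6.33 ± 0.17, adjusted p = 6.5e-19). Ccrl2, a non-signalling receptor that binds chemerin, had 518 ± 31.9 CPM with LPS and 3.61 ± 0.0302 CPM in untreated cells (log2 fold change 7.17 ± 0.08, adjusted p = 4.4e-39). The following had the largest falls of the list. Cxcr4, the receptor of CXCL12, had 3.34, 2.34 and 5.00 CPM with LPS, against 177, 155 and 161 CPM in untreated cells (log2 fold change -5.54 ± 0.21, adjusted p = 2.5e-14). Cx3cr1, the fractalkine receptor, had 66.7, 61.4 and 80.0 CPM with LPS, against 431, 400.1 and 431 CPM in untreated cells (log2 fold change -2.60 ± 0.12, adjusted p = 7.4e-14). Ccr2, the receptor of CCL2, had 26.6, 27.04 and 40.6 CPM with LPS, against 110.0, 107 and 96.4 CPM in untreated cells (log2 fold change -1.74 ± 0.14, adjusted p = 3.1e-10). C5ar2, the second receptor of complement C5a, had 1.23 ± 0.628 CPM with LPS and 20.9 ± 1.64 CPM in untreated cells (log2 fold change -4.11 ± 0.19, adjusted p = 1e-20). In none of these 7 genes, picked among the largest changes of the list, did the groups overlap, as for 72.3% of all genes tested. The close likeness of Fpr1 and Fpr2 makes the split of reads between them uncertain.

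G protein-coupled receptors for small ligands were higher in 25 and lower in 17 of 50 cases, and the median of 0.72 is -0.05 under library-size scaling. Adora2a, an adenosine receptor, had 172, 183 and 163 CPM with LPS, against 0.780, 1.06 and 1.38 CPM in untreated cells (log2 fold change 7.37 ± 0.14, adjusted p = 1.4e-29). Hcar2, the receptor of niacin and butyrate, had 335, 339 and 307 CPM with LPS, against 3.12, 1.57 and 2.16 CPM in untreated cells (log2 fold change 7.10 ± 0.13, adjusted p = 7.5e-29). Gpr84, a receptor of medium-chain fatty acids, had 343 ± 27.7 CPM with LPS and 7.93 ± 1.02 CPM in untreated cells (log2 fold change 5.43 ± 0.09, adjusted p = 1.2e-32). S1pr1, Lpar6 and Lpar5 were among the largest falls of the list. S1pr1, a receptor of sphingosine 1-phosphate, had 2.77, 1.88 and 1.37 CPM with LPS, against 61.6, 67.5 and 70.7 CPM in untreated cells (log2 fold change -5.02 ± 0.15, adjusted p = 8.5e-25). Lpar6, a receptor of lysophosphatidic acid, had 2.72, 4.22 and 2.56 CPM with LPS, against 70.3, 72.7 and 66.9 CPM in untreated cells (log2 fold change -4.46 ± 0.13, adjusted p = 2.6e-26). Lpar5, of the same ligand, had 0.257 ± 0.261 CPM with LPS and 15.3 ± 1.73 CPM in untreated cells (log2 fold change -5.82 ± 0.27, adjusted p = 3.7e-20, -6.93 without LPS library 1).

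**Figure D3:**
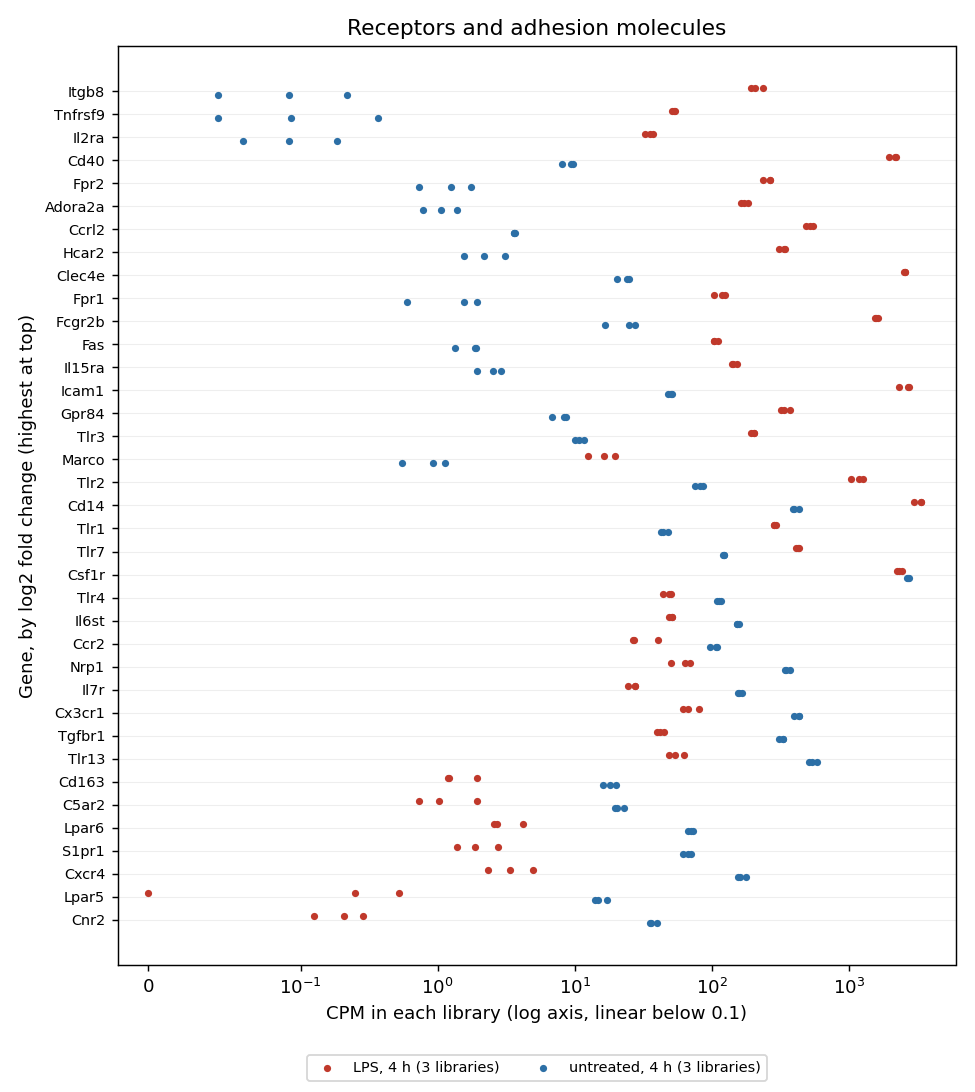
CPM of 37 receptor and adhesion genes (rows) in each of the 3 LPS libraries and the 3 untreated libraries at 4 h, on a log axis that is linear below 0.1. The LPS points lie to the right of the untreated points from Itgb8 to Tlr7 and to the left from Csf1r to Cnr2, where Csf1r shows the smallest distance at -0.22 ± 0.05 on the log2 scale.

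C-type lectins, Siglecs and paired receptors had 28 higher and 13 lower members of 49 tested (23 and 18 under library-size scaling), with a median of 0.99. Clec4e, which codes for Mincle, a receptor of mycobacterial glycolipid, had 2562, 2545 and 2584 CPM with LPS, against 23.9, 20.2 and 25.1 CPM in untreated cells (log2 fold change 6.79 ± 0.07, adjusted p = 4.4e-39). Fcgr2b, the inhibitory receptor of immunoglobulin G, had 1590.5, 1552 and 1624 CPM with LPS, against 27.3, 16.5 and 25.03 CPM in untreated cells (log2 fold change 6.10 ± 0.14, adjusted p = 3.1e-19). The activating Fcgr4 had 285 ± 16.6 CPM with LPS and 15.6 ± 0.570 CPM in untreated cells (log2 fold change 4.19 ± 0.14, adjusted p = 2.1e-16). Near-identical stretches within the Clec4 and Fcgr families make single values uncertain. Scavenger and apoptotic cell receptors had 12 higher and 13 lower members of 32 (8 and 22 under library-size scaling) and a median of -0.07, shares and a median near those of all genes tested. Olr1, the receptor of oxidised LDL, had 29.5 ± 4.74 CPM with LPS and 0.191 ± 0.169 CPM in untreated cells (log2 fold change 7.18 ± 0.34, adjusted p = 1.3e-18). Marco, which binds bacteria and particles, had 16.2 ± 3.56 CPM with LPS and 0.866 ± 0.290 CPM in untreated cells (log2 fold change 4.15 ± 0.29, adjusted p = 2e-10). Cd163, the haemoglobin scavenger receptor, had 1.45 ± 0.425 CPM with LPS and 18.1 ± 1.99 CPM in untreated cells (log2 fold change -3.66 ± 0.16, adjusted p = 8.9e-21).

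Integrins and other adhesion molecules were higher in 23 and lower in 8 of 36 cases, and the median of 0.60 is -0.17, with 16 higher and 16 lower, under library-size scaling. Itgb8, an integrin chain that activates latent TGF-beta, had 208, 194 and 235 CPM with LPS, against 0.218, 0.0922 and 0.0460 CPM in untreated cells (log2 fold change 10.59 ± 0.18, adjusted p = 1.9e-30, 11.46 without untreated library 1). Icam1, the ligand of leukocyte integrins, had 2592 ± 234 CPM with LPS and 49.9 ± 2.00 CPM in untreated cells (log2 fold change 5.70 ± 0.07, adjusted p = 1.8e-37). Itga6, a chain of laminin receptors, had 176, 150.2 and 134 CPM with LPS, against 710.2, 640.0 and 678 CPM in untreated cells (log2 fold change -2.14 ± 0.08, adjusted p = 8.6e-20). Guidance and growth factor receptors were higher in 24 and lower in 20 of 49 cases, with a median of 0.13 that is -0.64, with 15 higher and 29 lower, under library-size scaling. Dll1, a Notch ligand, had 696 counts with LPS and none in untreated cells, at least 332.5-fold higher. Nrp1, a co-receptor of semaphorins and VEGF, had 61.4 ± 9.65 CPM with LPS and 356 ± 16.7 CPM in untreated cells (log2 fold change -2.53 ± 0.07, adjusted p = 2.7e-28). Plxna2, a semaphorin receptor, changed by -3.08 ± 0.14. Of 26 genes tested of the TGF-beta, activin and BMP pathway, 11 were higher and 7 lower, with a median of 0.31. Under library-size scaling 7 were higher and 12 lower, and the median was -0.46. Tgfbr1, the type I receptor of TGF-beta, had 44.5, 42.0 and 39.7 CPM with LPS, against 332, 309 and 328 CPM in untreated cells (log2 fold change -2.94 ± 0.06, adjusted p = 1.5e-32), whereas Inhba, which codes for a chain of activin A, had 28.6 ± 2.55 CPM with LPS and 0.0619 ± 0.0536 CPM in untreated cells (log2 fold change 8.63 ± 0.36, adjusted p = 2.7e-21).

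Ligands and co-stimulatory molecules on the cell surface were mostly higher. Of 30 TNF superfamily ligands and co-stimulatory genes, 21 were higher and 6 lower, with a median of 3.02. Slamf1, a self-ligand that also senses bacteria, had 50.3 ± 5.67 CPM with LPS and 0.0416 ± 0.0721 CPM in untreated cells (log2 fold change 9.74 ± 0.32, adjusted p = 1.7e-24, 13.03 without untreated library 1). Tnfsf15 had 7168 counts with LPS and 1 in untreated cells, a ratio of 10270 with a 95% interval of 1843 to 405800. Tnfsf4, the OX40 ligand, had 928 counts with LPS and 3 in untreated cells, a ratio of 443 with a 95% interval of 151 to 2154. Of 18 complement components tested, 11 were higher and 2 lower, with a median of 0.75. Under library-size scaling 7 were higher and 7 lower, and the median was -0.01. In the complement system, C3, its central component, had 1169.8, 1319.5 and 1302 CPM with LPS, against 52.9, 35.2 and 47.1 CPM in untreated cells (log2 fold change 4.80 ± 0.18, adjusted p = 4.2e-14). Cfb, factor B of the alternative pathway, had 698 counts with LPS and none in untreated cells, at least 333.5-fold higher. Of 42 genes of cell death and survival, 31 were higher and 8 lower (22 and 15 under library-size scaling), with a median of 0.95. Zbp1, a sensor of left-handed nucleic acids that can start necroptosis, had 539 ± 52.0 CPM with LPS and 6.82 ± 1.13 CPM in untreated cells (log2 fold change 6.28 ± 0.17, adjusted p = 4.4e-17). Bmf, a pro-apoptotic BH3-only gene, had 0.821 ± 0.103 CPM with LPS and 19.6 ± 1.21 CPM in untreated cells (log2 fold change -4.58 ± 0.16, adjusted p = 2.1e-24). The anti-apoptotic Bcl2 had 1.28 ± 0.249 CPM with LPS and 14.97 ± 3.61 CPM in untreated cells (log2 fold change -3.55 ± 0.23, adjusted p = 2.7e-16). Gsdme, a pore-forming gasdermin gene, had 5.04 ± 0.387 CPM with LPS and 34.8 ± 1.51 CPM in untreated cells (log2 fold change -2.79 ± 0.11, adjusted p = 1.9e-22).

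Genes of DNA replication and mitosis were nearly all lower with LPS. E2F factors drive the genes of DNA replication, and of 19 E2F, retinoblastoma and DREAM genes tested 16 were lower and 2 higher, with a median of -1.58. E2f2 had 0.523, 0.513 and 1.06 CPM with LPS, against 33.5, 32.996 and 32.02 CPM in untreated cells (log2 fold change -5.57 ± 0.16, adjusted p = 6e-27). The members that rose were E2f5 and Rbl1. E2f5 had 27.3 ± 3.06 CPM with LPS and 9.69 ± 1.17 CPM in untreated cells (adjusted p = 9.3e-13). Rbl1, which codes for the pocket protein p107, had 125 ± 11.6 CPM with LPS and 70.0 ± 2.53 CPM in untreated cells (log2 fold change 0.84 ± 0.07, adjusted p = 1.3e-13), a call that is lost under library-size scaling (adjusted p = 0.35). Of 51 replication licensing and fork genes, 48 were lower, against 38.8% of all genes, and 2 were higher, with a median of -1.52. Cdc6, which loads the replicative helicase, had 0.679, 0.685 and 0.0625 CPM with LPS, against 15.7, 20.5 and 18.6 CPM in untreated cells (log2 fold change -5.19 ± 0.31, adjusted p = 4.3e-16). Pole2, a subunit of DNA polymerase epsilon, had 0.575, 0.913 and 0.625 CPM with LPS, against 13.1, 15.7 and 12.97 CPM in untreated cells (log2 fold change -4.29 ± 0.20, adjusted p = 9.6e-21). Clspn, which codes for the fork protein claspin, had 3.48 ± 1.14 CPM with LPS and 45.7 ± 3.22 CPM in untreated cells (log2 fold change -3.72 ± 0.13, adjusted p = 3.9e-24). Uhrf1, a partner of Dnmt1 at hemimethylated DNA, had 14.7 ± 2.37 CPM with LPS and 129 ± 10.2 CPM in untreated cells (log2 fold change -3.14 ± 0.10, adjusted p = 1.9e-26). Mcm7, a subunit of the helicase, had 29.3 ± 4.83 CPM with LPS and 133 ± 7.95 CPM in untreated cells (log2 fold change -2.18 ± 0.08, adjusted p = 4.8e-24). Gins3, part of the active helicase complex, had 2.88 ± 0.943 CPM with LPS and 11.2 ± 1.89 CPM in untreated cells (log2 fold change -1.95 ± 0.17, adjusted p = 1.4e-12).

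The exceptions in the replication list were Mcm10, Timeless and Rfc3. Mcm10, a factor of replication start, had 63.0, 72.5 and 75.0 CPM with LPS, against 36.4, 37.6 and 31.6 CPM in untreated cells (log2 fold change 0.99 ± 0.09, adjusted p = 1.3e-12). The adjacent gene on chromosome 2, Optn, lies 7850 bases upstream on the same strand in the deposited table and had 125 ± 1.42 CPM with LPS and 10.96 ± 0.748 CPM in untreated cells (log2 fold change 3.52 ± 0.08, adjusted p = 1.4e-29), and its part in the Mcm10 value was not tested. Timeless had 48.9 ± 3.24 CPM with LPS and 35.8 ± 3.94 CPM in untreated cells (log2 fold change 0.45 ± 0.10, adjusted p = 0.00011), a rise that turns to a fall of -0.32 under library-size scaling. Rfc3, a clamp loader subunit, did not pass the test, with 21.1 ± 0.877 CPM with LPS and 20.7 ± 0.836 CPM in untreated cells (adjusted p = 0.84), and is at -0.74 under that scaling.

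RefSeq promoters were available for 39 of the 48 replication genes that fell. An E2F site, searched as TTTCCCGC or TTTGGCGC on both strands, was present in 11 of them (28.2%), against 1.8% of the 27025 genes in the promoter table and 3.45% of the 6175 tested genes with a promoter that did not change at least 2-fold. Of the 14 promoters of NF-kB members that rose, 2 held it (14.3%). The 3 stretches shown belong to the genes with the largest falls that had a match before the start, 100 bases each, 5′ to 3′ on the strand of the gene, with the match in capitals. They are on the plus strand for Cdc6 and Gins3 and on the minus strand for Mcm7, and all 3 matches read GCGGGAAA, the reverse complement of the first form.
Cdc6 (chr11:98907963-98908062): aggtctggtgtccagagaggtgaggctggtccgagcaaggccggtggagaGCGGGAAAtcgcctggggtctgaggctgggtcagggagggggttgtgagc
Mcm7 (chr5:138171999-138172098): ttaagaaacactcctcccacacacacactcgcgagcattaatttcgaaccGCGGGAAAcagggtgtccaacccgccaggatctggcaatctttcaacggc
Gins3 (chr8:95633459-95633558): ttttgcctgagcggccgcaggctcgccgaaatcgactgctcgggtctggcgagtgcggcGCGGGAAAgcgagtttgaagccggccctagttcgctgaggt

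Mitosis genes were lower in 48 and higher in 2 of 54 cases, with a median of -1.11. Cenpn, a kinetochore gene, had 2.72, 1.60 and 2.62 CPM with LPS, against 11.7, 16.3 and 12.9 CPM in untreated cells (log2 fold change -2.55 ± 0.19, adjusted p = 8.8e-15). Kif23, a motor of cytokinesis, had 9.25, 11.4 and 13.7 CPM with LPS, against 50.2, 64.7 and 65.6 CPM in untreated cells (log2 fold change -2.40 ± 0.13, adjusted p = 2.2e-15). Bub1b, which codes for the checkpoint kinase BUBR1, had 15.3 ± 1.30 CPM with LPS and 62.6 ± 7.36 CPM in untreated cells (log2 fold change -2.04 ± 0.11, adjusted p = 1.5e-16). The members that rose were the motor genes Cenpe (0.46 ± 0.10) and Kif4 (0.39 ± 0.10), which turn to falls of -0.30 and -0.38 under library-size scaling. Ccnb1, Bub3, Nusap1 and Tpx2 did not pass the test. Kinesins as a family, taken by symbol, were lower in 24 and higher in 7 of 34 cases (29 and 1 under library-size scaling), with a median of -1.20, and Kif1a, a transport motor best known from neurons, had 6.28 ± 0.550 CPM with LPS and 0.201 ± 0.0728 CPM in untreated cells (log2 fold change 4.86 ± 0.45, adjusted p = 5e-12).

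Cyclins and CDK inhibitors of the G1 phase moved in both directions. Of 18 tested, 7 were higher and 8 lower, and the median of 0.12 is -0.65, with 4 higher and 10 lower, under library-size scaling and -0.079 without LPS library 1. Ccnd1, cyclin D1, had 26.8, 20.3 and 24.2 CPM with LPS, against 439.8, 389.7 and 439.9 CPM in untreated cells (log2 fold change -4.15 ± 0.14, adjusted p = 2.7e-16). Its paralog Ccnd2 had 507, 546 and 575 CPM with LPS, against 26.3, 25.6 and 27.3 CPM in untreated cells (log2 fold change 4.36 ± 0.09, adjusted p = 2.1e-29). Per kilobase of exon, with LPS Ccnd1 held 5.04 CPM and Ccnd2 57.7, and in untreated cells Ccnd1 held 89.9 and Ccnd2 2.81. Cdkn1a, which codes for the inhibitor p21, had 2492, 2351 and 2159 CPM with LPS, against 140.1, 136 and 137 CPM in untreated cells (log2 fold change 4.08 ± 0.10, adjusted p = 2.7e-22). Ccne2 had 2.66 ± 0.408 CPM with LPS and 25.3 ± 2.71 CPM in untreated cells (log2 fold change -3.25 ± 0.16, adjusted p = 4.3e-20), and its kinase Cdk2 had 11.5 ± 1.60 CPM with LPS and 59.2 ± 5.50 CPM in untreated cells (log2 fold change -2.36 ± 0.09, adjusted p = 6.6e-24).

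DNA repair genes were lower in 58 and higher in 9 of 74 cases (70 and 2 under library-size scaling), with a median of -1.25. Ung, the glycosylase that removes uracil from DNA, had 1.05, 0.742 and 0.250 CPM with LPS, against 18.3, 21.2 and 19.9 CPM in untreated cells (log2 fold change -4.81 ± 0.22, adjusted p = 5.2e-21). Msh6, a mismatch recognition subunit, had 3.55, 4.74 and 4.00 CPM with LPS, against 57.2, 55.3 and 60.2 CPM in untreated cells (log2 fold change -3.81 ± 0.12, adjusted p = 2.5e-26). Exo1, the exonuclease of the same pathway, had 0.984 ± 0.105 CPM with LPS and 15.04 ± 0.810 CPM in untreated cells (log2 fold change -3.92 ± 0.21, adjusted p = 1.3e-18). Rad51c, of homologous recombination, had 0.271 ± 0.162 CPM with LPS and 5.04 ± 0.994 CPM in untreated cells (log2 fold change -4.21 ± 0.38, adjusted p = 3e-12).

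Cholesterol synthesis and uptake genes were lower in 18 and higher in 1 of 23 cases, with a median of -0.57. Dhcr7, the last enzyme of cholesterol synthesis, had 9.20, 6.33 and 4.81 CPM with LPS, against 40.7, 41.8 and 35.4 CPM in untreated cells (log2 fold change -2.52 ± 0.15, adjusted p = 2.3e-15). Stard4, a cholesterol transfer protein gene, had 17.7 ± 0.954 CPM with LPS and 71.6 ± 3.92 CPM in untreated cells (log2 fold change -2.01 ± 0.13, adjusted p = 2e-12). Msmo1, a sterol oxidase gene, had 51.0 ± 4.29 CPM with LPS and 189 ± 7.98 CPM in untreated cells (log2 fold change -1.89 ± 0.12, adjusted p = 2.9e-11). The member that rose was Srebf2, the master factor of these enzymes, with 420.3 ± 34.6 CPM with LPS and 322 ± 9.68 CPM in untreated cells (log2 fold change 0.38 ± 0.08, adjusted p = 0.0001), which turns to -0.39 under library-size scaling. Of 42 genes of lipid handling and cholesterol efflux tested, 15 were higher and 18 lower (10 and 30 under library-size scaling), with a median of -0.15. Ch25h, the enzyme that makes 25-hydroxycholesterol, had 367, 395 and 343 CPM with LPS, against 11.01, 4.65 and 9.06 CPM in untreated cells (log2 fold change 5.44 ± 0.19, adjusted p = 4.7e-15). Dgat2, of triglyceride synthesis, had 42.2 ± 2.43 CPM with LPS and 1.58 ± 0.267 CPM in untreated cells (log2 fold change 4.77 ± 0.14, adjusted p = 2.3e-26). Scd2, a desaturase gene, had 6.64 ± 1.89 CPM with LPS and 112 ± 25.9 CPM in untreated cells (log2 fold change -4.06 ± 0.35, adjusted p = 7e-09). Genes of the citrate cycle and branched-chain amino acid breakdown were higher in 16 and lower in 18 of 43 cases, with a median of 0.00. Under library-size scaling 3 were higher and 38 lower, and the median was -0.77. Hibch, of valine breakdown, had 1.17 ± 0.0998 CPM with LPS and 12.3 ± 0.584 CPM in untreated cells (log2 fold change -3.38 ± 0.17, adjusted p = 2.7e-19).

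Lysosome genes were lower in 29 and higher in 17 of 53 cases (45 and 7 under library-size scaling), with a median of -0.16 against -0.07 over all genes tested. At least 2-fold, 5 were lower and 7 higher. With TMM factors their sums were not lower, at 36936 to 40372 CPM with LPS and 33341 to 34438 CPM in untreated libraries. Under library-size scaling these sums are lower with LPS. Sgsh, a sulfatase that degrades heparan sulfate, had 2.09, 2.45 and 1.44 CPM with LPS, against 42.2, 40.2 and 47.7 CPM in untreated cells (log2 fold change -4.43 ± 0.12, adjusted p = 1.3e-27). Ctns, the cystine exporter of lysosomes, had 9.03 ± 2.14 CPM with LPS and 35.7 ± 2.27 CPM in untreated cells (log2 fold change -1.99 ± 0.11, adjusted p = 8.2e-19). Acp5, tartrate-resistant acid phosphatase, rose with 79.9 ± 14.1 CPM with LPS and 3.60 ± 0.697 CPM in untreated cells (log2 fold change 4.50 ± 0.17, adjusted p = 1.4e-15), as did the channel gene Mcoln2 with 197 ± 26.1 CPM with LPS and 15.3 ± 1.07 CPM in untreated cells (log2 fold change 3.69 ± 0.09, adjusted p = 4.7e-26). Of 42 autophagy genes tested, 14 were higher and 22 lower (6 and 33 under library-size scaling), with a median of -0.30. Tax1bp1, an autophagy receptor that also limits NF-kB, had 1261 ± 60.6 CPM with LPS and 154 ± 5.15 CPM in untreated cells (log2 fold change 3.03 ± 0.06, adjusted p = 1.3e-31).

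Families taken by symbol added a broad fall among zinc finger genes. Of 333 genes named Zfp with a number, 216 were lower and 44 higher (293 and 21 under library-size scaling), with a median of -0.80. The exceptions included Zfp811 and Zfp366. Zfp811 had 23.2 ± 1.66 CPM with LPS and 0.0619 ± 0.0536 CPM in untreated cells (log2 fold change 8.33 ± 0.30, adjusted p = 4e-24). Zfp366, which codes for a dendritic cell factor also named DC-SCRIPT, had 10.8 ± 1.54 CPM with LPS and 0.144 ± 0.0926 CPM in untreated cells (log2 fold change 6.16 ± 0.37, adjusted p = 3.7e-17). Many members of this family resemble each other closely, and reads that match several of them make single values uncertain. Proteasome genes were higher in 40 and lower in 3 of 45 cases, with a median of 0.78 that is 0.01 under library-size scaling, where 18 are higher and 20 lower. Interferon-inducible subunits were among the members that rose. Psmb10 had 492, 542 and 506 CPM with LPS, against 45.4, 45.9 and 42.1 CPM in untreated cells (log2 fold change 3.53 ± 0.07, adjusted p = 1.5e-32). Psmb9 had 237 ± 16.5 CPM with LPS and 29.02 ± 0.635 CPM in untreated cells (log2 fold change 3.03 ± 0.08, adjusted p = 1.4e-26). Psme2, whose near copy Psme2b makes its value uncertain, had 832 ± 47.5 CPM with LPS and 85.8 ± 1.25 CPM in untreated cells (log2 fold change 3.28 ± 0.06, adjusted p = 7.1e-33). Psmc3ip, a recombination factor that shares only the symbol, had 1.57 ± 0.612 CPM with LPS and 5.91 ± 0.679 CPM in untreated cells (log2 fold change -1.91 ± 0.28, adjusted p = 1.2e-07). Cytosolic ribosomal protein genes were higher in 78 of 85 cases, with the other 7 not called and a median of 0.41, but under library-size scaling 75 were lower, the other 10 were not called and the median was -0.36.

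**Figure D4:**
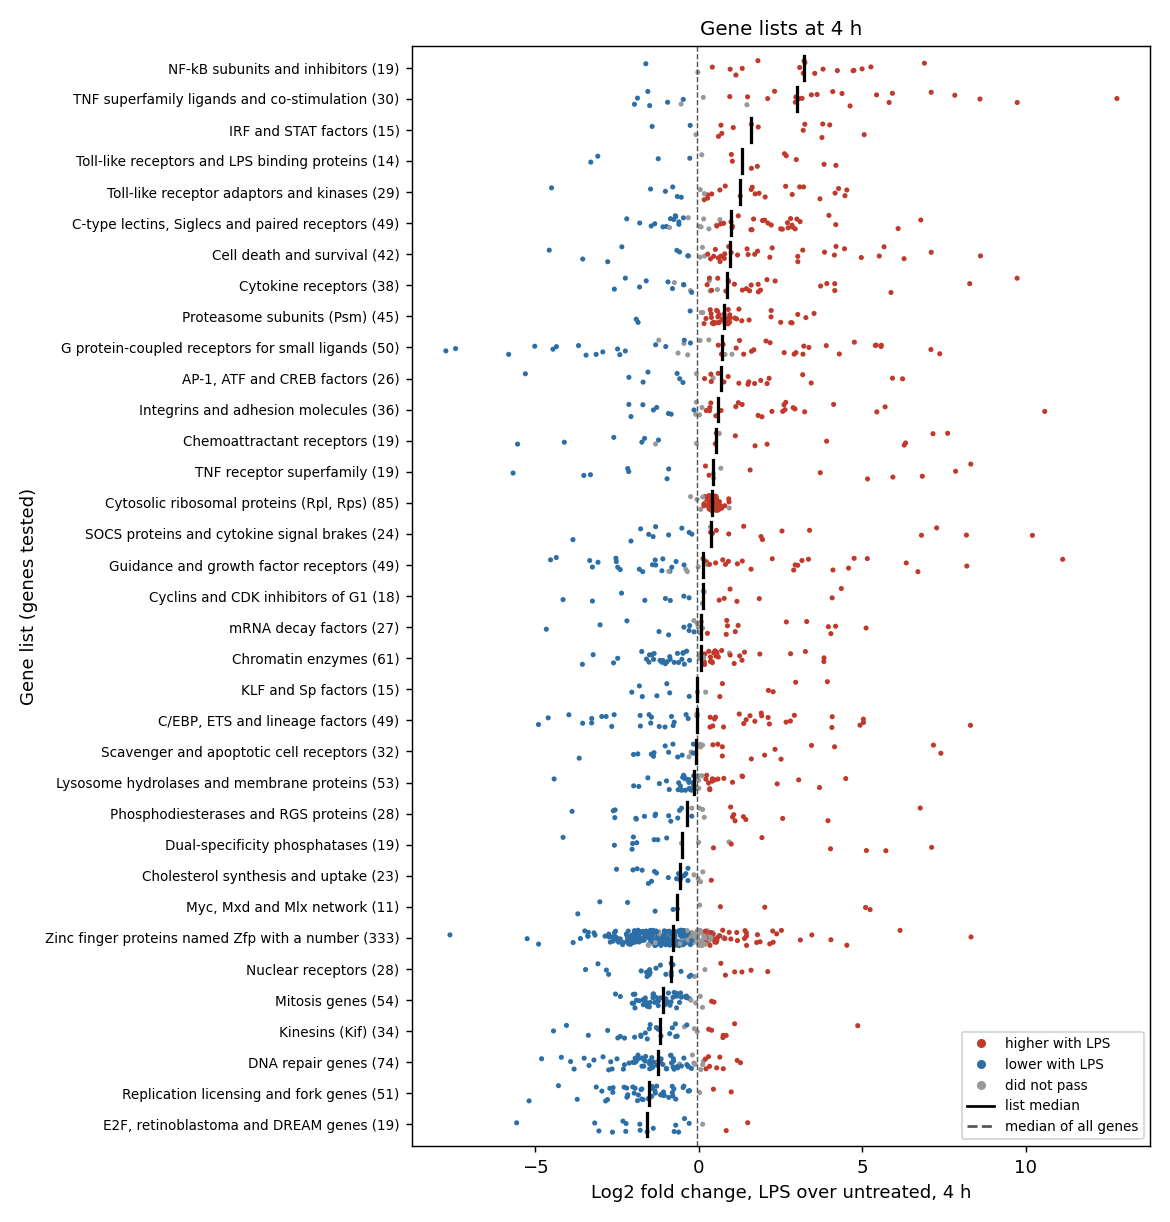
Log2 fold changes of LPS over untreated cells at 4 h (horizontal axis) for the genes tested of 35 gene lists and families (rows, number of genes in brackets), 1 point per gene, with the list median as a black bar and the median of all genes, -0.07, as a dashed line. The NF-kB list has the highest median at 3.22 and the E2F list the lowest at -1.58. Under library-size scaling all points move left by about 0.77, which turns the median of AP-1, chromatin, SOCS, mRNA decay, TNF receptor, chemoattractant, G protein-coupled receptor, integrin, guidance, G1 cyclin and ribosomal protein genes below 0.

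Host transcripts of microRNAs were also among the genes counted. Mir155hg, the host of miR-155, a microRNA known to restrain inhibitors such as SHIP1, had 68.1, 64.8 and 62.7 CPM with LPS, against 0.0624, 0.0461 and 0.0460 CPM in untreated cells (log2 fold change 10.11 ± 0.24, adjusted p = 1.9e-28). Mir22hg had 61.2, 67.8 and 71.3 CPM with LPS, against 24.9, 28.9 and 28.6 CPM in untreated cells (log2 fold change 1.28 ± 0.09, adjusted p = 1.2e-14). Mir17hg, the host of the miR-17-92 cluster, had 3.03, 3.77 and 2.94 CPM with LPS, against 8.89, 6.68 and 8.65 CPM in untreated cells (log2 fold change -1.32 ± 0.18, adjusted p = 2.6e-08). These libraries count the host transcripts, and the mature microRNAs were not measured. The mature forms are shown for reference from RefSeq (GRCm38.p6), 5′ to 3′ on the plus strand, with the seed at bases 2 to 8 in capitals, and no seed is shared among the 3.
mmu-miR-155-5p (chr16:84714143-84714165): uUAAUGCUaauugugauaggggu
mmu-miR-22-3p (chr11:75463772-75463793): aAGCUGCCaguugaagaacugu
mmu-miR-17-5p (chr14:115043684-115043706): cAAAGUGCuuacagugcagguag

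The abundant transcripts shifted as well. On the scale of CPM per kilobase of exon, Lyz2, the lysozyme gene, was the highest in both groups, at 10202 with LPS and 9201 in untreated cells, though its groups overlapped and its difference (log2 fold change 0.15 ± 0.06, adjusted p = 0.022) turns to -0.62 under library-size scaling. The chemokine genes Ccl4 (8926 CPM per kilobase with LPS, against 23.3 in untreated cells) and Ccl3 (8488, against 30.8) came next with LPS, a pair of near copies whose split is uncertain. Acod1, the enzyme that makes itaconate, reached 3935 CPM per kilobase with LPS and 1.25 in untreated cells. Actb, often used as a reference gene, was at 14813 ± 844 CPM with LPS and 5606 ± 116 CPM in untreated cells (log2 fold change 1.40 ± 0.06, adjusted p = 1.9e-22).

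Genes that moved at 4 h did not always keep their direction at 24 h. Of the 2630 genes at least 2-fold higher with LPS at 4 h, 997 were at least 2-fold higher at 24 h, which is 37.9% of the 4 h genes and 64.6% of the 24 h genes. Of the 3249 genes at least 2-fold lower, 1133 were at least 2-fold lower at 24 h, 34.9% and 54% of the genes at each time. In a test of the difference itself, the LPS effect differed between the times for 9185 genes, or 61.3%, and 1716 genes (11.5%) were called in opposite directions at each time with the difference called. Among the transcription factors and receptors of that kind, Flt1, a VEGF receptor, had 76.2 ± 1.13 CPM with LPS and 7.29 ± 2.34 CPM in untreated cells at 4 h and 0.0624 ± 0.0697 CPM with LPS and 1.84 ± 0.572 CPM in untreated cells at 24 h (difference of log2 effects 8.03 ± 0.50, adjusted p = 7.6e-15). Vcam1, an adhesion molecule, had 119.6 ± 16.7 CPM with LPS and 2.72 ± 0.242 CPM in untreated cells at 4 h and 3.28 ± 0.615 CPM with LPS and 7.31 ± 1.40 CPM in untreated cells at 24 h (6.60 ± 0.21, adjusted p = 4e-24). Klf8 had 48.2 ± 0.976 CPM with LPS and 6.14 ± 1.24 CPM in untreated cells at 4 h and 1.96 ± 0.281 CPM with LPS and 7.02 ± 0.759 CPM in untreated cells at 24 h (4.80 ± 0.20, adjusted p = 1.3e-21), and Scarf2 followed the same course (4.94 ± 0.48, adjusted p = 3.2e-11). The opposite course was seen in Smad6, an inhibitor of BMP signalling, with 6.84 ± 1.74 CPM with LPS and 26.8 ± 2.52 CPM in untreated cells at 4 h and 13.3 ± 0.624 CPM with LPS and 0.813 ± 0.270 CPM in untreated cells at 24 h (-6.00 ± 0.24, adjusted p = 3.4e-22). The neighbouring and related genes Tnfrsf22, Tnfrsf23 and Tnfrsf26, the first 2 of which code for decoy receptors of TRAIL in mice, were each lower with LPS at 4 h and higher at 24 h, with reads that may be shared among them. Tnfrsf26 had 0.742 ± 0.604 CPM with LPS and 8.33 ± 1.26 CPM in untreated cells at 4 h and 30.4 ± 3.74 CPM with LPS and 13.2 ± 0.427 CPM in untreated cells at 24 h (-4.72 ± 0.28, adjusted p = 1.5e-16), Tnfrsf22 differed by -4.52 ± 0.27, adjusted p = 7.6e-17, and Tnfrsf23 by -3.86 ± 0.20, adjusted p = 1.5e-18.

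**Figure D5:**
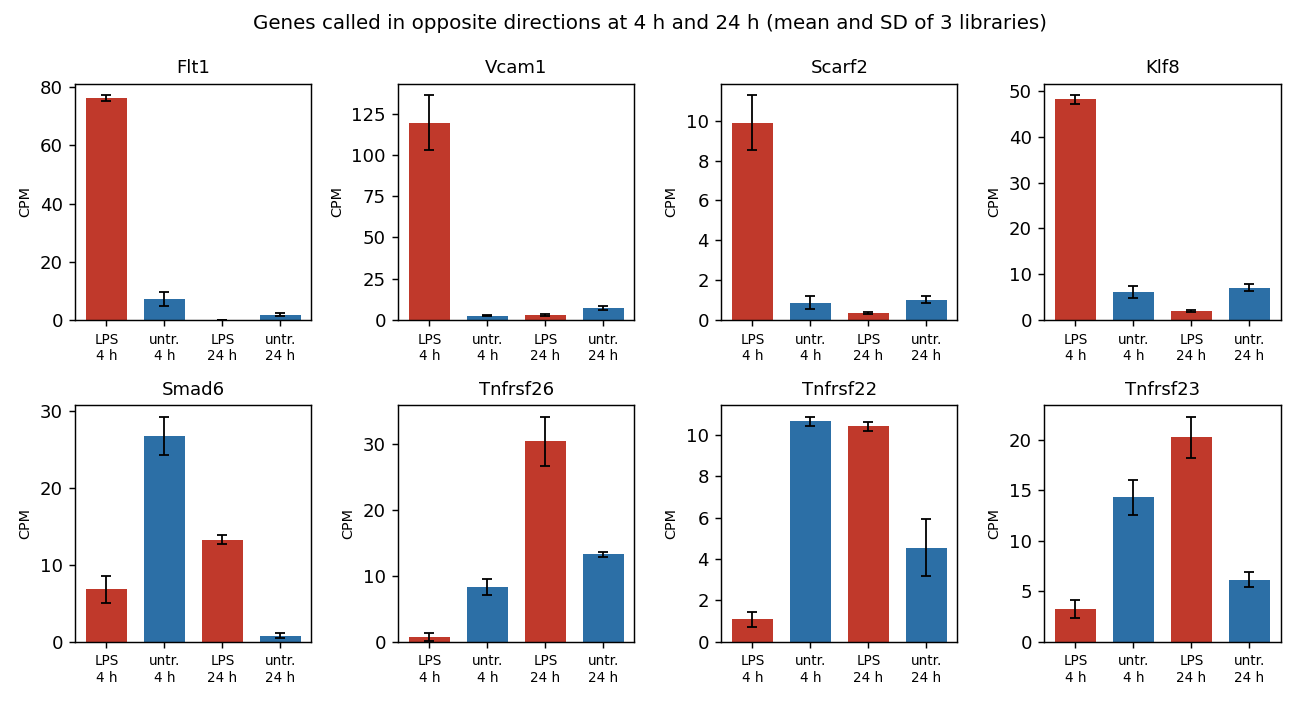
Mean CPM (bars from 0, error bars SD of 3 libraries) of 8 transcription factor and receptor genes at 4 h and then 24 h, with the LPS group left of the untreated group at each time. Flt1, Vcam1, Scarf2 and Klf8 are higher with LPS at 4 h and lower at 24 h, and Smad6, Tnfrsf26, Tnfrsf22 and Tnfrsf23 are lower with LPS at 4 h and higher at 24 h.

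Markers of other cell types had far lower sums than the macrophage markers, though single ones were not low, and several moved with LPS. Their part in the results above was not tested. Of 11 neutrophil markers tested of 12 listed, 5 were higher and the other 6 did not pass (3 higher and 3 lower under library-size scaling), with sums of 126 to 176 CPM with LPS and 53.2 to 74.2 CPM in untreated libraries, and Ly6g had no count in untreated cells. S100a8 had 38.5 ± 5.14 CPM with LPS and 11.9 ± 2.05 CPM in untreated cells (log2 fold change 1.68 ± 0.14, adjusted p = 4e-12). S100a9 had 60.1 ± 10.97 CPM with LPS and 18.1 ± 3.84 CPM in untreated cells (log2 fold change 1.72 ± 0.18, adjusted p = 1.3e-08). Of 8 dendritic cell markers, 5 were higher and the other 3 did not pass (3 higher and 1 lower under library-size scaling), with sums of 24.7 to 30.8 CPM with LPS and 4.88 to 7.05 CPM in untreated cells, and Xcr1 alone had 9.86 ± 0.492 CPM with LPS and 0.133 ± 0.204 CPM in untreated cells (log2 fold change 6.29 ± 0.45, adjusted p = 1.3e-14, 5.70 without untreated library 1 and 8.65 without untreated library 2). Stromal and endothelial markers, 5 tested of 10 listed, were higher in 4 cases and not called in the other 1, with sums of 139.6 to 186 CPM with LPS and 14.5 to 20.8 CPM in untreated cells. Of that sum Kdr, a VEGF receptor, held 120.1 ± 22.6 CPM with LPS and 15.4 ± 3.20 CPM in untreated cells, and Pdgfrb, a PDGF receptor, held 40.9 ± 3.16 CPM with LPS and 0.153 ± 0.133 CPM in untreated cells, while the collagen gene Col3a1 had no count in either group and Dcn, Lum and Pdgfra had none in untreated cells. Of 4 mast cell and basophil markers tested of 8 listed, 3 were higher and the other 1 did not pass, with sums of 9.70 to 14.4 CPM with LPS and 4.19 to 6.30 CPM in untreated cells, and Mcpt4 and Tpsb2 had no count in either group. Of 13 lymphocyte markers only 3 passed the filter, of which 2 were lower, and their sums of 25.9 to 28.7 CPM with LPS and 156.7 to 167.7 CPM in untreated cells were nearly all Il7r. Nkg7 and Ncr1 had no count with LPS, and Cd3g had none in untreated cells. The 1 erythroid marker tested of 8 listed did not pass, sums were under 0.4 CPM in every library, and Hba-a2, Hbb-bs and Hbb-bt had no count in either group.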

How the data were processed

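RNA-seq was made from bone marrow-derived macrophages, and the 8 groups of 3 libraries were read from the labels. The deposited values are counts of read pairs per gene, summed over exons without regard to strand by featureCounts 2.0.0 with the GENCODE M29 annotation, per the file headers. STAR and GRCm38/mm10 are named without a version in the submitters' processing notes. M29 was built on another assembly, so the alignment build is not certain, and overlapping or antisense genes cannot be told apart. Gene identifiers were given the symbols of GENCODE M21 (52081 matched, 3276 did not). Of 55357 genes, 25771 had no count in any library, 14601 were removed by filterByExpr and 14985 were tested.

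All 24 libraries were fitted together with edgeR 4.0.16 in R 4.3.3 (TMM factors, robust quasi-likelihood F test, two-sided, 16 residual degrees of freedom, biological coefficient of variation 6.29%), with a threshold of 0.05 on the adjusted p. The approximate standard error of a log2 fold change is its size divided by the square root of F. Tables and figures were made with Python 3.11.15 and pandas 2.3.3. The fit was tested on simulated data in which few genes changed with LPS at 4 h, about equally in both directions. That test cannot show how TMM factors perform in these data, where 72.9% of genes tested were called. A fold against a group without counts is a lower bound from a floor of 3 counts over that group, and 95% intervals of ratios cover counting error only. Replicates differed by more than sampling noise, with a chi-square per gene of 4.33 to 8.32.

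The comparison, gene lists and families were chosen with earlier results of these data known. Genes were named by rule, first the 15 largest rises and falls among genes averaging at least 5 CPM. These 15 also needed an adjusted p under 0.05 and groups without overlap. Provisional symbols (Gm with a number, ending in Rik, or a bare identifier) were left out of them. The rule further took up to 4 rises, 4 falls and 2 uncalled genes per list, and the 10 highest per kilobase. It also took the 4 largest differences in each direction between the times among transcription factors and receptors called in opposite directions. Every Toll-like receptor and LPS binding gene was included. Atf3, Cebpb, Gins3, Gpr84, Mcm7, Myd88, Nfkb1, Nfkb2, Nkiras1, Rel, Rela, Relb and Tnip1 were chosen after their values were seen, as were members named as exceptions to a list. Some genes that meet the rule are not reported here. The alternatives tried were library size scaling, DESeq2 1.42.0, no filter, the 6 libraries alone, the replicate number as a block, each library left out, and edgeR's test against a 2-fold change.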

Additional observations from a re-analysis of the deposited data

Results flagged for a closer look

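The LPS effect differed between 4 h and 24 h for 9185 genes in the test of the difference itself (edgeR quasi-likelihood test, adjusted p under 0.05). The 8 transcription factor and receptor genes with the largest opposite effects are listed here by the log2 effect at 4 h minus that at 24 h. Flt1 differed by 8.03, Vcam1 by 6.60, Scarf2 by 4.94 and Klf8 by 4.80, each higher with LPS at 4 h and lower at 24 h. Smad6 differed by -6.00, Tnfrsf26 by -4.72, Tnfrsf22 by -4.52 and Tnfrsf23 by -3.86, each lower with LPS at 4 h and higher at 24 h. The 2 times are separate sets of libraries, and whether another difference between those sets takes part in these values was not tested.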

How the results depend on the processing

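Scaling by library size alone gave 2434 genes higher with LPS and 9778 lower, of which 1622 and 6345 changed at least 2-fold, and 10264 genes whose effect differed between the times. Of the named genes, 207 kept their direction and call under it and 8 changed sign, namely Adgre1 (-0.25), Cenpe (-0.30), Kif4 (-0.38), Lyz2 (-0.62), Rfc3 (-0.74), Srebf2 (-0.39), Timeless (-0.32) and Tlr9 (-0.68), and Rbl1 lost its call. Among the lists described in the report, medians turned below 0 under it for AP-1 (-0.087), chromatin (-0.70), SOCS (-0.37), mRNA decay (-0.69), TNF receptor (-0.30), chemoattractant (-0.23), G protein-coupled receptor (-0.048), integrin (-0.17), guidance (-0.64), G1 (-0.65, and from -0.079 without LPS library 1 to 0.16 with another library left out) and ribosomal protein (-0.36) genes. Medians turned above 0 with DESeq2 for lineage factors (0.016) and KLF factors (0.021, and from -0.13 to 0.024 with 1 library left out). The other settings kept every count within 1.5 times. DESeq2 called 5442 genes higher and 5512 lower, the fit without a filter 5307 and 6126, and the 6 libraries alone 4804 and 5190. Leaving out 1 library of 4 h gave 5002 to 5079 higher, 5613 to 5693 lower, 2654 to 2712 at least 2-fold higher, 3197 to 3267 at least 2-fold lower and 8979 to 9093 differing between the times. The test against a 2-fold change called 2186 higher and 2404 lower.

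Deviations of same-numbered libraries correlated at 0.00, -0.05 and 0.01, and those of differently numbered libraries at -0.06 to 0.05. A check on 3 libraries a group cannot show whether the replicates share mice or preparations. With the replicate block, 5095 genes were higher, 5780 lower, 2613 at least 2-fold higher, 3234 at least 2-fold lower and 9145 differed between the times.

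Depth limits genes with few counts, whose ratios have wide intervals. With 3 libraries a group, the spread of single genes is borrowed from the 8 groups in the shared fit. Lyz2 lost its call without LPS library 2 (adjusted p = 0.15) or untreated library 2 (0.28), Cd68 lost it with DESeq2 (0.053), and Lbp without LPS library 1 (0.064). A comparison of promoter motifs over all genes that rose or fell is void, since promoters matched only 10290 of 14985 genes tested. Rises smaller than the shift between the scalings, 0.77 on the log2 scale, can turn to falls under library size alone.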
